A study of Homo sapiens with 12 samples.

Results

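The 45 genes described here are interferon-stimulated and RNA-sensing genes. They were taken by name from a list that was chosen with earlier results of these data known. Contrasts of members with all genes are therefore descriptive. Their rows were read in a messenger RNA table (RNA-seq) and a ribosome footprint table (Ribo-seq) of 27011 genes each. A member was dropped from a table where it had fewer than 10 counts summed over the 6 libraries. That left 38 members in RNA-seq, 38 in Ribo-seq and 35 in both, and 4 members (OAS1, OAS2, IFI44 and IFI16) in neither.

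The cells were HEK293T, a human embryonic kidney line that carries the SV40 large T antigen. Wild-type (WT) cells were compared with 4EHP-null and GIGYF1/2-null cells, all untreated, plated on 15 cm dishes and harvested 24 hours later. Each genotype had 2 biological replicates in each assay, which makes 12 libraries. How the null cells were derived, and whether each is 1 clone, is not stated in the labels, so a difference between genotypes cannot be told apart from a difference between clones.

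4EHP is a cap-binding protein that competes with the translation initiation factor eIF4E, and GIGYF1 and GIGYF2 are its partners. They lower the translation and stability of the mRNAs to which they are brought. Interferon-stimulated genes are switched on by type I interferon through transcription factors such as STAT2 and IRF9, which bind the interferon-stimulated response element (ISRE) in their promoters, and some respond directly to IRF3 or IRF7. Their products sense foreign RNA, degrade it or block virus entry and translation, and many cells keep a low level of them without interferon.

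The promoter sequences are shown because interferon acts on many such genes through the ISRE. RefSeq promoters (build GRCh38.p14, 250 bases before to 50 after each annotated start) matched 37 of the 45 members, with 50 promoters among them. The 8 members with no entry were OAS2, DHX58, IFITM2, IRF3, IRF7, PML, IFIT2 and USP18. The ISRE core was searched as GAAA, any 2 bases and GAAA, on both strands, with overlapping matches counted. It lay in the promoters of 23 of the 37 members (62.2%), and in those of 1195 of all 27305 genes of the table (4.38%). The core of the gamma-activated site, TTC, any 3 bases and GAA, searched in the same way, lay in 9 of 37 (24.3%) against 9.38% of all genes. Of the 20 members whose mRNA rose in either null line, 17 had a promoter entry and 11 of these held the ISRE core. PARP9 and DTX3L, both among the 11, have overlapping promoters and hold the same match. Of the 16 members that were tested and did not pass as higher in either line, 13 had an entry and 8 held the core. A match describes letters only and is not a mapped binding site. The 250 bases before the start are printed 5′ to 3′ on the gene's strand, with the matches in capitals. OAS3 and LGALS3BP are shown because their mRNA rose in both null lines and their promoters hold the core. IFIH1 and ISG15 were added after their values were seen, as a member with large changes and as the namesake of the group, which showed no called change.
OAS3 (chr12:112938224-112938473, plus strand): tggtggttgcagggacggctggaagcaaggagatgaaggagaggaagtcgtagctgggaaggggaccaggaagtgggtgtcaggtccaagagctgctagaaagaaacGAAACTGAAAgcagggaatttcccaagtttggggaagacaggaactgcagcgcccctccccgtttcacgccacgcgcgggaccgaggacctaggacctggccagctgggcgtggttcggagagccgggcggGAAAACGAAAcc
LGALS3BP (chr17:78979924-78980173, minus strand): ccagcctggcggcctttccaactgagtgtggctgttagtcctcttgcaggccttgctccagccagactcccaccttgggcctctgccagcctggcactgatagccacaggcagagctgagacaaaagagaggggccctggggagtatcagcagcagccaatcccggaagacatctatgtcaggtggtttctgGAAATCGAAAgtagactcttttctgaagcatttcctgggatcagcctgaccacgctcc
IFIH1 (chr2:162318685-162318934, minus strand): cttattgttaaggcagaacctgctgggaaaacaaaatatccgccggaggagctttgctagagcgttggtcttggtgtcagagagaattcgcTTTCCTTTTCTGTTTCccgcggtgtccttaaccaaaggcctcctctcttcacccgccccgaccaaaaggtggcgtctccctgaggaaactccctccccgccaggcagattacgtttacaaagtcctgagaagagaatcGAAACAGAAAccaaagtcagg
ISG15 (chr1:1013247-1013496, plus strand): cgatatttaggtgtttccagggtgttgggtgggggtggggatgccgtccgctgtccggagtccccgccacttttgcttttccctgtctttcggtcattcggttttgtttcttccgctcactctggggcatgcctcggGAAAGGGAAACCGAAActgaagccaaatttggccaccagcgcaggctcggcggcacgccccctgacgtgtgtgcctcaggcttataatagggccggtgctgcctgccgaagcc
OAS3 held 2 matches, LGALS3BP 1, IFIH1 3 (2 of them overlapping, on the other strand) and ISG15 2 overlapping ones.

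**Figure D1:**
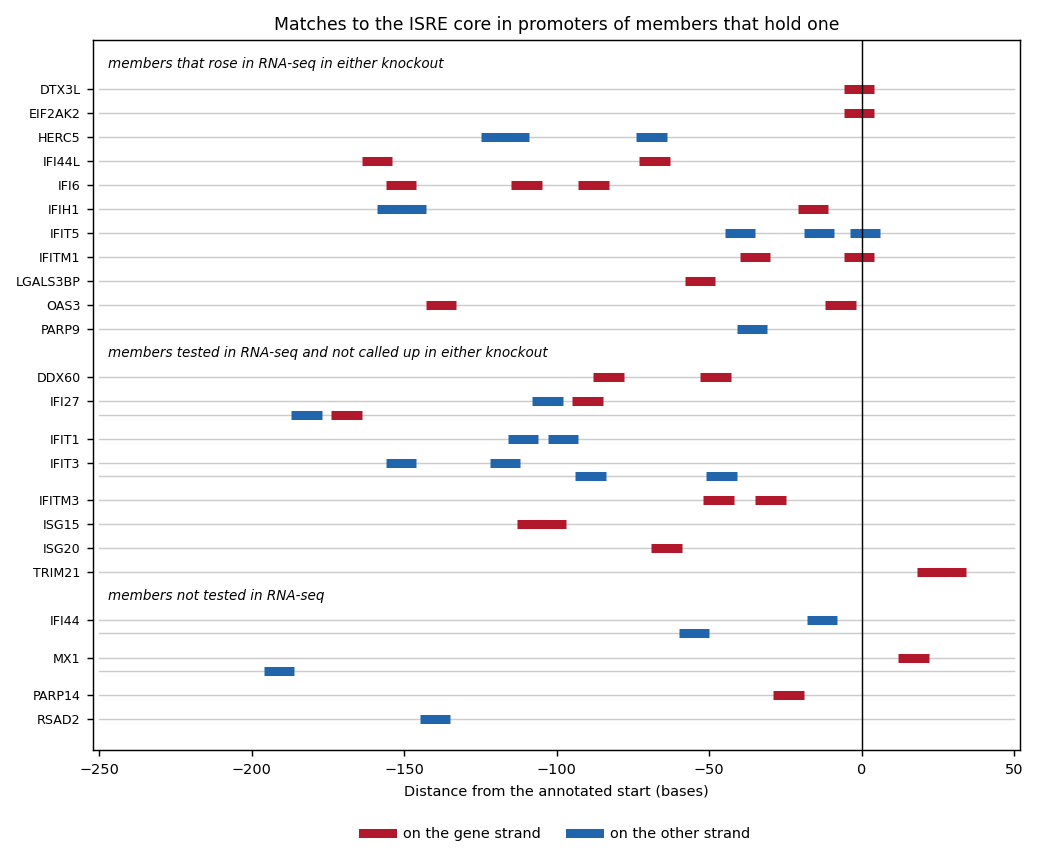
Positions of ISRE core matches (x axis, bases from the annotated start; grey lines, promoters from 250 bases before to 50 after) in the 23 members that hold one, grouped by their RNA-seq call. Colours give the strand of the match, and a second line is a second annotated start. Matches occur in members of all 3 groups, 11 of 17, 8 of 13 and 4 of 7 members with an entry.

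Total counts ran from 26143118 to 38175701 over the RNA-seq and from 6536493 to 10816080 over the Ribo-seq libraries. Replicates correlated at 0.998 to 0.999 in RNA-seq and 0.995 in Ribo-seq (log2 of CPM plus 1, across genes), and no library stood apart. EIF4E2, the gene of 4EHP, was at 123 and 123 CPM of RNA (counts scaled to library size) in WT and at 51.0 and 46.7 in 4EHP-null cells (log2 fold change -1.33 ± 0.08 SE, edgeR adjusted p = 5.92e-07). GIGYF1 was at 41.2 and 40.8 CPM in WT and 22.4 and 26.0 in GIGYF1/2-null cells (-0.76 ± 0.11, edgeR adjusted p = 0.000691). GIGYF2 was at 81.2 and 66.1 CPM of RNA in WT and 96.7 and 81.8 in GIGYF1/2-null cells. Its footprints were at 90.8 and 63.9 CPM in WT and 81.6 and 51.7 in GIGYF1/2-null cells (log2 fold change -0.21 ± 0.22 SE, edgeR adjusted p = 0.671). GIGYF2 counts thus do not show the loss in either assay, and protein was not measured. All 8 HEK293T markers examined were expressed, and those that changed in 4EHP-null RNA included EYA1, NEFM and NEFL, which fell (log2 fold changes -3.36, -2.02 and -1.11), and KRT8, which rose (0.99). In GIGYF1/2-null RNA 4 of the 8 rose (KRT8 1.26, KRT18 0.53, NEFL 0.45 and NEFM 0.44) and VIM fell (-0.48), so NEFL and NEFM moved in opposite directions in the null lines. The NEFM rise ended in 5 of the 6 fits that left out 1 library, all but that without GIGYF1/2-null replicate 2 (edgeR adjusted p up to 0.327), and with only the genotypes compared, and the VIM fall ended without either WT replicate or GIGYF1/2-null replicate 2 (up to 0.275) and in DESeq2. The part of these marker differences in the results was not tested. Of 12 leukocyte markers, none was called in any comparison, their summed level was 3.66 to 5.82 CPM of RNA, and PTPRC, which encodes the pan-leukocyte protein CD45, had 0 counts.

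In WT cells the members ranged from rows with no RNA counts to abundant mRNAs. Per kilobase of the deposited gene width, ADAR, an enzyme that edits adenosine in double-stranded RNA, stood first at 54.8 CPM. LGALS3BP, a secreted glycoprotein, followed at 35.0, SAMHD1, which hydrolyses deoxynucleotides, at 21.9 and IRF3 at 18.7. Several classical markers of an interferon response had few or no RNA counts, some of them in spite of footprints. RSAD2 (viperin) and XAF1, a partner of an apoptosis inhibitor, are listed at 0 RNA counts in all 6 libraries but had 89 and 124 footprint counts, and PARP14, an ADP-ribosyltransferase, had 2 RNA and 193 footprint counts. No level is read from these RNA rows. OAS1 and OAS2, which act like OAS3, had 5 and 2 RNA counts in all, IFI44 4 and IFI16 6. IFIT2 with 54 counts and MX1, an antiviral GTPase, with 32 passed the sum of 10 but were too low to be tested. Of the interferon ligand genes listed, 18 were in the tables. IFNE had 12 RNA counts and IFNK 1 over all libraries, the other 16 had 0, and all 18 had 0 Ribo-seq counts.

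Summed over the 45 members, RNA levels were 927 and 935 CPM in WT, 1194 and 1191 in 4EHP-null and 1227 and 1157 in GIGYF1/2-null libraries. Footprint sums were 969 and 977 CPM in WT, 1241 and 1304 in 4EHP-null and 1293 and 1239 in GIGYF1/2-null libraries. Both null lines stood above WT in both assays, without overlap. The abundant members ADAR and LGALS3BP hold much of these sums, and LGALS3BP much of their rise. Mean LGALS3BP RNA was 79.2 CPM in WT, 175 in 4EHP-null and 232 in GIGYF1/2-null cells, and its footprints 171, 322 and 426. For ADAR the means were 389, 417 and 389 CPM of RNA and 197, 219 and 181 of footprints. The sums thus do not show a rise across the group.

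In 4EHP-null RNA, 11 of the 36 members tested rose against WT and 1 fell. Called means an adjusted p under 0.05 (edgeR quasi-likelihood test, Benjamini-Hochberg over all genes). Over all 15637 genes tested, 13.1% were called, 6.47% higher and 6.63% lower. The largest rises by fold were those of IFI44L, IFI35, OAS3 and LGALS3BP, and IRF7 was the member that fell. The members' median log2 fold change was 0.32, against -0.00 over all genes, and 25 of 36 were above 0, against 49.6% of all genes. At an unadjusted p under 0.05, 19 members (52.8%) passed, against 27.3% of all genes. In these bulk libraries, more RNA per cell and more expressing cells cannot be told apart.

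In GIGYF1/2-null RNA, 12 of 36 members rose and none fell. Over all genes 11.9% were called, 5.20% higher and 6.75% lower, a split that moved from 43.5% to 53.6% of calls higher under upper-quartile scaling. IFIH1, OAS3, LGALS3BP and UBE2L6 rose most. The members' median was 0.34 against 0.01 over all genes, 28 of 36 were above 0 against 50.9% of all genes, and 15 (41.7%) passed at an unadjusted p under 0.05, against 25.3% of all genes. Both comparisons use the same WT libraries. OAS3, LGALS3BP and UBE2L6 were called higher in both, and 20 members in at least 1. The matching shares of all genes were not counted, so these counts only list members.

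**Figure D2:**
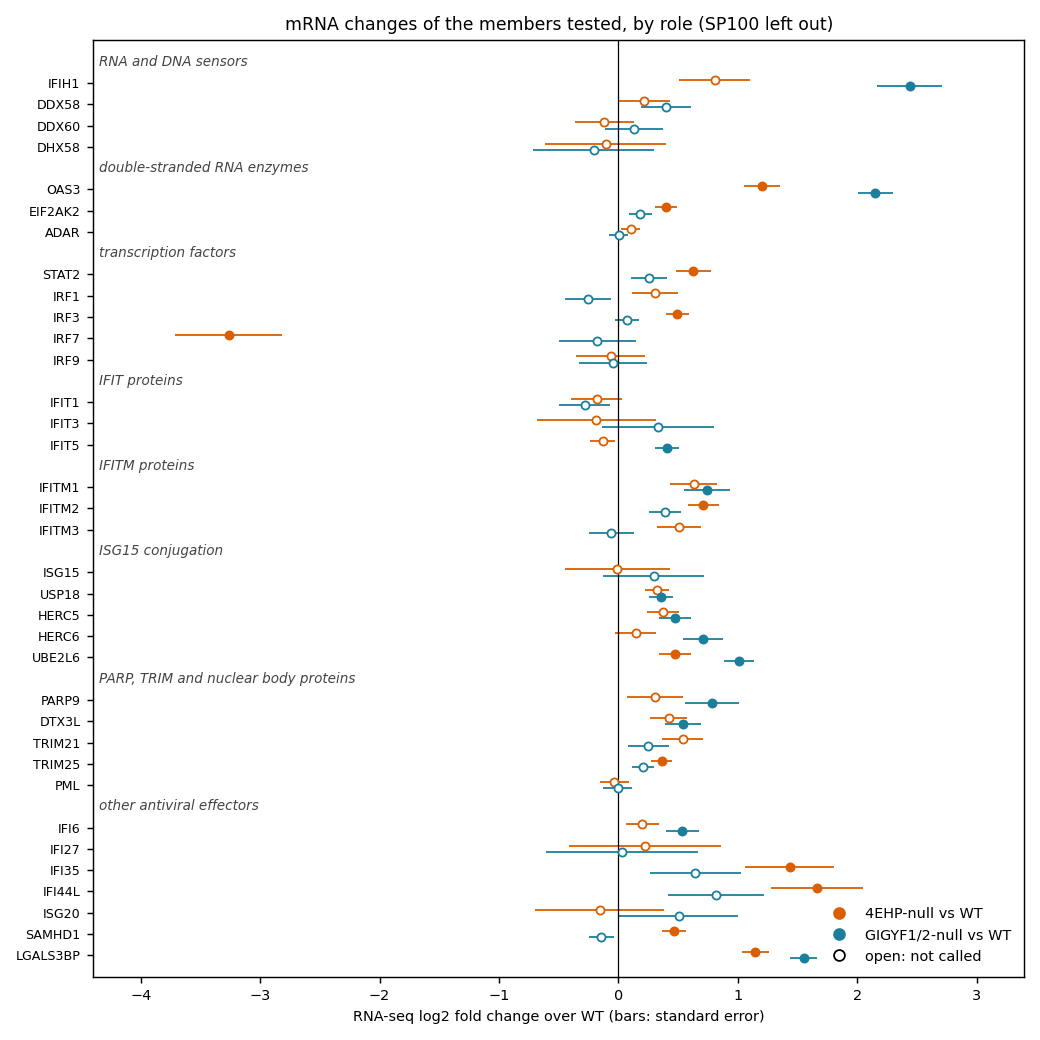
RNA-seq log2 fold changes over WT (x axis; bars, standard error) of 35 tested members, by role, in 4EHP-null and GIGYF1/2-null cells; filled points passed adjusted p under 0.05 (SP100, with 62 counts in all, is left out). Most points lie right of 0, IFIH1 and OAS3 lead in GIGYF1/2-null cells, and IRF7 alone lies far to the left, in 4EHP-null cells.

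Among the sensors, IFIH1 (MDA5), which binds long double-stranded RNA, changed most. Its mRNA was at 1.29 and 1.18 CPM in WT, 1.83 and 2.51 in 4EHP-null and 8.20 and 5.23 in GIGYF1/2-null libraries. The 3 genotypes did not overlap. IFIH1 rose in GIGYF1/2-null cells (log2 fold change 2.44 ± 0.27 SE, edgeR adjusted p = 0.000147), in every fit that left out 1 library. In 4EHP-null cells its change of 0.81 ± 0.30 did not pass (edgeR adjusted p = 0.0981). DDX58 (RIG-I), the sensor of RNA with a 5′ triphosphate, stayed between 3.27 and 4.69 CPM. DDX60, a related helicase, ranged from 1.90 to 2.75 CPM, and DHX58 (LGP2), a regulator of both sensors, from 0.30 to 0.68 CPM. None of these 3 passed, with log2 fold changes between -0.21 and 0.40. IFI16, a DNA sensor, was dropped with 6 counts.

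The enzymes that act on or are switched on by double-stranded RNA were led by OAS3, which makes 2′-5′ oligoadenylates that activate RNase L. OAS3 mRNA was at 4.78 and 6.05 CPM in WT, 12.2 and 12.9 in 4EHP-null and 26.5 and 21.9 in GIGYF1/2-null libraries. These values form 3 separate steps. OAS3 rose by 1.20 ± 0.15 on the log2 scale in 4EHP-null (edgeR adjusted p = 0.000319) and by 2.15 ± 0.15 in GIGYF1/2-null cells (edgeR adjusted p = 5.55e-06), and both calls held in every fit that left out 1 library. EIF2AK2 (PKR), the kinase that phosphorylates eIF2α, was at 47.4 and 44.1 CPM in WT, 62.0 and 58.6 in 4EHP-null and 54.6 and 49.3 in GIGYF1/2-null libraries. Its rise in 4EHP-null cells was 0.40 ± 0.09 (edgeR adjusted p = 0.0143). Leaving out any 1 of the 4 libraries compared ended that call, with adjusted p up to 0.157. EIF2AK2 overlaps GPATCH11 in the annotation. ADAR stayed between 376 and 418 CPM and was not called.

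The transcription factors did not move together. IRF7, which drives the later interferon-α genes, was at 1.63 and 1.37 CPM in WT, 0.18 and 0.11 in 4EHP-null and 1.30 and 1.34 in GIGYF1/2-null libraries. Only the 4EHP-null libraries were low, at 6 and 3 counts against 48 and 51 in WT. By counts IRF7 was 9.73-fold higher in WT than in 4EHP-null RNA (exact 95% interval 4.92 to 21.9, for counting error only). Its fall passed (edgeR adjusted p = 0.000671) and held in every fit that left out 1 library. IRF3, the factor that virus sensors activate, was at 37.4 and 37.7 CPM in WT, 53.8 and 51.97 in 4EHP-null and 41.6 and 37.4 in GIGYF1/2-null libraries. It rose by 0.49 ± 0.10 on the log2 scale in 4EHP-null cells (edgeR adjusted p = 0.00598), but not in the fits that lacked WT replicate 1 or 2 (adjusted p up to 0.0614). IRF3 overlaps BCL2L12, and no strand setting is given, so reads of the pair cannot be told apart. STAT2 was at 14.7 and 11.1 CPM in WT, 21.8 and 17.8 in 4EHP-null and 15.4 and 15.3 in GIGYF1/2-null libraries, with the 4EHP-null pair on top. Its rise there was 0.63 ± 0.15 (edgeR adjusted p = 0.0141) and ended without WT replicate 2 or 4EHP-null replicate 1 (adjusted p up to 0.139). IRF9, at 1.79 to 2.84 CPM, and IRF1, at 4.12 to 7.58 CPM, were not called against WT.

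Of the IFIT genes, whose products bind viral RNA ends, only IFIT5 was abundant. It was at 37.8 and 42.9 CPM in WT, 35.7 and 37.9 in 4EHP-null and 55.4 and 51.5 in GIGYF1/2-null libraries. The GIGYF1/2-null pair stood apart, with a rise of 0.41 ± 0.10 on the log2 scale over WT (edgeR adjusted p = 0.0217). That call ended without either WT replicate or GIGYF1/2-null replicate 1, with adjusted p up to 0.217. IFIT1 ranged from 2.93 to 4.19 CPM and IFIT3 from 0.34 to 1.08 CPM, and neither was called. The IFIT genes lie within or beside LIPA in the annotation.

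The IFITM genes encode membrane proteins that hinder virus entry, and their near-identical sequences may share reads. IFITM2 mRNA was at 9.52 and 12.1 CPM in WT, 17.8 and 17.8 in 4EHP-null and 13.9 and 14.6 in GIGYF1/2-null libraries. It rose by 0.71 ± 0.13 on the log2 scale in 4EHP-null cells (edgeR adjusted p = 0.0038) in every fit that left out 1 library. IFITM1 was at 3.29 and 4.81 CPM in WT, 6.02 and 6.63 in 4EHP-null and 7.41 and 6.26 in GIGYF1/2-null libraries. Both null lines were above WT for IFITM1, but only the GIGYF1/2-null change of 0.74 ± 0.20 passed (edgeR adjusted p = 0.0273), and not without WT replicate 1 or GIGYF1/2-null replicate 1 (adjusted p up to 0.21). IFITM3 was at 3.59 and 4.20 CPM in WT, 5.90 and 5.18 in 4EHP-null and 3.51 and 3.98 in GIGYF1/2-null libraries, and passed against WT in neither line.

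ISG15 is a ubiquitin-like protein that UBE2L6 and HERC5 help to attach and USP18 removes, and HERC6 was listed with them. Of these 5 members, 4 were called higher in GIGYF1/2-null RNA, where 5.20% of all genes were. ISG15 itself did not pass, at 0.73 to 1.73 CPM (0.29 ± 0.42). UBE2L6 was at 11.4 and 11.3 CPM in WT, 15.6 and 16.0 in 4EHP-null and 20.04 and 25.6 in GIGYF1/2-null libraries. These are again 3 separate steps, with rises of 0.47 ± 0.13 (edgeR adjusted p = 0.032) and 1.01 ± 0.13 (edgeR adjusted p = 0.000403). The second held in every fit that left out 1 library, and the first in none that left out a library compared (adjusted p up to 0.141) nor in limma-voom (adjusted p = 0.0533). HERC6 was at 7.63 and 5.51 CPM in WT, 7.03 and 7.43 in 4EHP-null and 11.5 and 9.91 in GIGYF1/2-null libraries, a rise of 0.71 ± 0.17 (edgeR adjusted p = 0.0154). HERC5 was at 19.96 and 22.3 CPM in WT, 26.1 and 28.8 in 4EHP-null and 33.0 and 25.6 in GIGYF1/2-null libraries, and rose by 0.47 ± 0.13 (edgeR adjusted p = 0.0356) in the latter. USP18 was at 35.9 and 32.5 CPM in WT, 44.0 and 41.5 in 4EHP-null and 45.2 and 42.5 in GIGYF1/2-null libraries, and rose by 0.36 ± 0.10 (edgeR adjusted p = 0.0361). For HERC5 and USP18 both null lines lay above WT, while the HERC6 values of 4EHP-null and WT overlapped. USP18 has a near-identical copy, USP41, with which reads may be shared. The calls ended without WT replicate 2 or GIGYF1/2-null replicate 1 for all 3 genes, without WT replicate 1 for HERC5 and USP18, and without GIGYF1/2-null replicate 2 for USP18. Their adjusted p then rose to at most 0.143, 0.23 and 0.252 for HERC6, HERC5 and USP18.

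PARP9 and DTX3L form a complex that modifies histones and ubiquitin, and their genes overlap, so their reads cannot be fully separated. PARP9 was at 3.32 and 2.15 CPM in WT, 3.36 and 3.35 in 4EHP-null and 4.91 and 4.41 in GIGYF1/2-null libraries. DTX3L was at 5.86 and 5.24 CPM in WT, 7.37 and 7.47 in 4EHP-null and 8.74 and 7.40 in GIGYF1/2-null libraries. Both were highest in GIGYF1/2-null cells on average, with rises over WT of 0.78 ± 0.23 (edgeR adjusted p = 0.0405) and 0.54 ± 0.15 (edgeR adjusted p = 0.0375). The PARP9 call was kept only without WT replicate 1, and the DTX3L call only without GIGYF1/2-null replicate 2, with adjusted p up to 0.292 and 0.203 otherwise. DESeq2 called neither, and the DTX3L call also ended with only the genotypes compared (adjusted p up to 0.0686 over these settings). TRIM25, a ubiquitin ligase of the RIG-I pathway, was at 99.8 and 95.4 CPM in WT, 127 and 124 in 4EHP-null and 123 and 103 in GIGYF1/2-null libraries. It rose in 4EHP-null cells by 0.36 ± 0.09 (edgeR adjusted p = 0.0202), a call lost without any 1 of the 4 libraries compared (adjusted p up to 0.151). TRIM21, an antibody receptor in the cytosol, ranged from 5.19 to 8.56 CPM, and PML, which builds nuclear bodies, from 13.3 to 15.7 CPM. Neither passed. SP100, another nuclear body protein, had 62 RNA counts in all, spread as 9 and 0, 0 and 6, and 28 and 19 over the WT, 4EHP-null and GIGYF1/2-null libraries.

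Among the other effectors, LGALS3BP was the most abundant to change. It was at 68.1 and 90.2 CPM in WT, 172 and 179 in 4EHP-null and 224 and 241 in GIGYF1/2-null libraries. The 3 genotypes were separate, and LGALS3BP rose by 1.15 ± 0.11 on the log2 scale in 4EHP-null (edgeR adjusted p = 4.58e-05) and by 1.55 ± 0.11 in GIGYF1/2-null cells (edgeR adjusted p = 7.18e-06). Both calls held in every fit that left out 1 library. SAMHD1 was at 74.4 and 65.1 CPM in WT, 98.3 and 93.9 in 4EHP-null and 69.2 and 57.1 in GIGYF1/2-null libraries, and rose by 0.46 ± 0.10 in 4EHP-null cells (edgeR adjusted p = 0.0109). IFI6, a small mitochondrial and endoplasmic reticulum protein, was at 7.76 and 6.64 CPM in WT, 8.22 and 8.27 in 4EHP-null and 10.4 and 10.4 in GIGYF1/2-null libraries, and rose by 0.54 ± 0.14 in the latter (edgeR adjusted p = 0.0235). The SAMHD1 and IFI6 values thus peaked in different null lines. IFI44L was at 0.64 and 0.48 CPM in WT, 1.34 and 2.25 in 4EHP-null and 1.01 and 0.96 in GIGYF1/2-null libraries, with a 4EHP-null rise of 1.67 ± 0.38 (edgeR adjusted p = 0.0135). IFI35, a partner of NMI, was at 1.25 and 3.25 CPM in WT, 4.80 and 7.77 in 4EHP-null and 2.63 and 4.56 in GIGYF1/2-null libraries, with a 4EHP-null rise of 1.44 ± 0.37 (edgeR adjusted p = 0.0238). Replicates of IFI35 spread widely in every genotype. Its change ran from 0.94 to 2.31 over the fits that left out 1 library, ended without WT replicate 1 or 4EHP-null replicate 2 (adjusted p up to 0.173), and did not pass in DESeq2 (adjusted p = 0.14). Single libraries also ended the calls of SAMHD1 (WT replicate 2 or either 4EHP-null replicate, adjusted p up to 0.132), IFI44L (either WT replicate or 4EHP-null replicate 2, up to 0.136) and IFI6 (WT replicate 2 or either GIGYF1/2-null replicate, up to 0.167). SAMHD1 overlaps TLDC2 in the annotation. IFI27, at 60 counts in all, and ISG20, at 96, were not called.

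**Figure D3:**
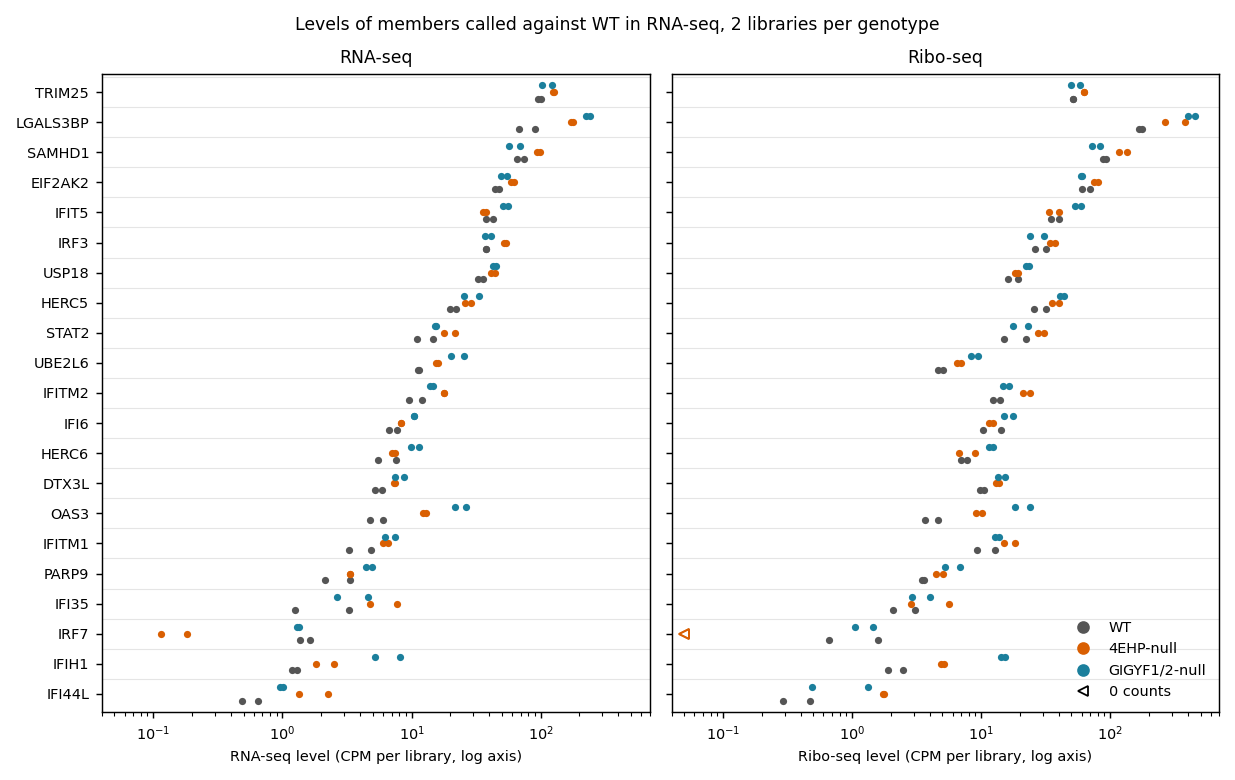
Levels (x axis, CPM, log scale) of the 21 members called against WT in RNA-seq, in each RNA-seq (left) and Ribo-seq (right) library; 2 points per genotype, open triangle, 0 counts. OAS3, IFIH1, LGALS3BP and UBE2L6 step up from WT to 4EHP-null to GIGYF1/2-null in RNA-seq, and IRF7 is low only in 4EHP-null libraries.

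The null lines were also compared with each other. In GIGYF1/2-null against 4EHP-null RNA, 7 of 36 members were higher and 3 lower. That share of 27.8% was near the 24.4% of all genes called (11.4% higher, 13.0% lower). Of the calls over all genes, 46.8% were higher, and 58.7% under upper-quartile scaling. IFIH1 was higher by 1.63 ± 0.26 on the log2 scale (edgeR adjusted p = 0.00069), OAS3 by 0.95 ± 0.14 (edgeR adjusted p = 0.000408) and IFIT5 by 0.54 ± 0.10 (edgeR adjusted p = 0.00245). IRF7 was 8.66-fold higher by counts (exact 95% interval 4.36 to 19.6). UBE2L6 (0.53), HERC6 (0.56) and LGALS3BP (0.41) were higher as well. SAMHD1 was lower by -0.61 ± 0.10 (edgeR adjusted p = 0.00116), IRF3 by -0.42 ± 0.10 and IFITM3 by -0.57 ± 0.18. The calls of IFIH1, IFIT5, IRF7, OAS3 and SAMHD1 held in every fit that left out 1 library. Those of UBE2L6 (without 4EHP-null replicate 1 or GIGYF1/2-null replicate 2), LGALS3BP (either 4EHP-null replicate or GIGYF1/2-null replicate 2), HERC6 (either 4EHP-null replicate or GIGYF1/2-null replicate 1), IRF3 (GIGYF1/2-null replicate 2) and IFITM3 (any library compared) did not. Their adjusted p reached 0.1, 0.116, 0.14, 0.0757 and 0.206. The IFITM3 call also ended under upper-quartile scaling, in DESeq2 and with only the genotypes compared (adjusted p up to 0.0868). The median of the 36 members was 0.07, against 0.00 over all genes, and 18 (50%) passed at an unadjusted p under 0.05, against 37.0% of all genes.

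Each member was also set beside up to 12 tested genes on each side of it in RefSeq order. A segment was taken as moved where the neighbours' median log2 fold change passed 0.2 in the member's own direction. None of the 12 members called in 4EHP-null RNA lay in such a segment, and their neighbours' medians ran from -0.09 to 0.12. The same held for the 12 called in GIGYF1/2-null RNA, with medians from -0.05 to 0.12. IFIH1, not called in 4EHP-null RNA, did lie in one there (median 0.32), as did members with small negative values: IFIT1, IFIT3 and IFIT5 on chromosome 10 (-0.31), ISG20 (-0.43) and PML (-0.42) on chromosome 15. Beside IFIH1 the median was 0.00 in GIGYF1/2-null RNA, where IFIH1 rose by 2.44. Between the null lines, IFIT5 was the called member in a moved segment, with a neighbours' median of 0.36 and 12 of 24 neighbours called the same way.

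**Figure D4:**
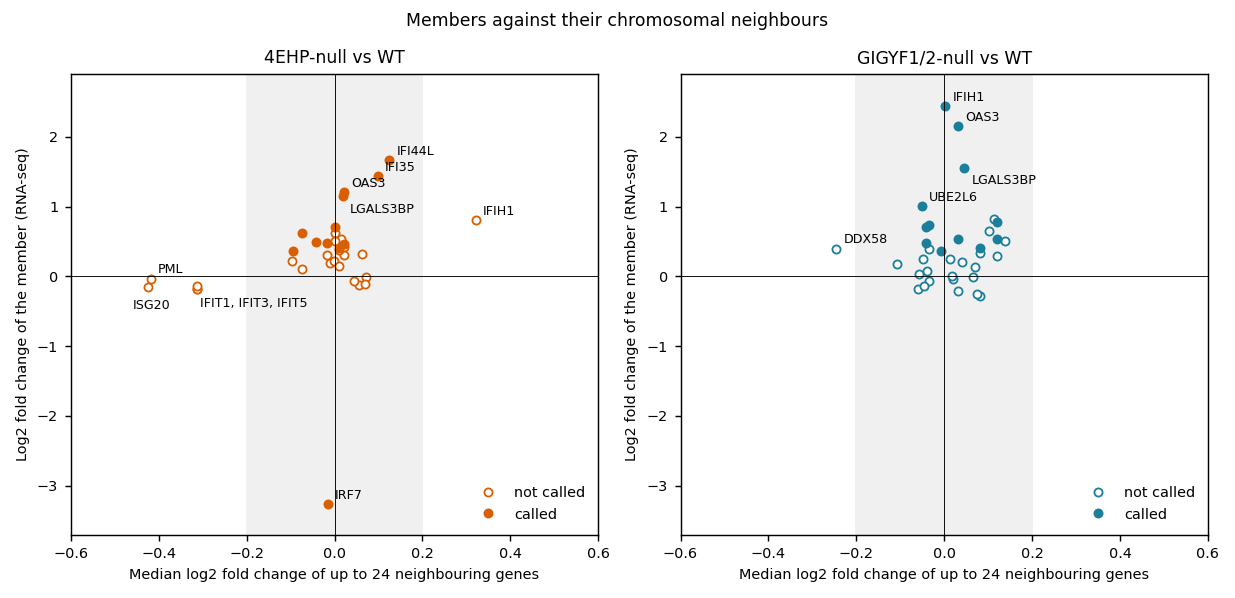
RNA-seq log2 fold change of each tested member but SP100 (y axis) against the median of up to 24 neighbouring genes (x axis), for 4EHP-null (left) and GIGYF1/2-null (right) over WT; filled points were called and the grey band spans -0.2 to 0.2. All called members lie within the band, and IFIH1 lies outside it in 4EHP-null cells.

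Footprints of OAS3, LGALS3BP and IFIH1 rose in both null lines, and those of IRF7 fell in 4EHP-null cells. In 4EHP-null Ribo-seq, 4 of 35 members rose and 1 fell, against 3.04% of all 14722 genes called (1.58% higher, 1.46% lower), and 12 members (34.3%) passed at an unadjusted p under 0.05, against 19.1% of all genes. In GIGYF1/2-null Ribo-seq, 3 rose and none fell, against 2.09% (0.727% higher, 1.36% lower), and 13 (37.1%) passed unadjusted, against 17.5% of all genes. The share of all calls that were higher was 34.9% there, 48.7% under upper-quartile scaling and 21% in DESeq2. Medians were 0.38 and 0.37, against -0.00 and 0.00 over all genes.

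OAS3 footprints were at 4.64 and 3.69 CPM in WT, 9.13 and 10.1 in 4EHP-null and 23.8 and 18.3 in GIGYF1/2-null libraries. IFIH1 footprints were at 1.88 and 2.46 CPM in WT, 4.88 and 5.18 in 4EHP-null and 15.2 and 14.2 in GIGYF1/2-null libraries. LGALS3BP footprints were at 166 and 176 CPM in WT, 267 and 378 in 4EHP-null and 399 and 453 in GIGYF1/2-null libraries. For all 3 genes the genotypes stood in the order WT, 4EHP-null, GIGYF1/2-null without overlap. In GIGYF1/2-null cells IFIH1 rose by 2.71 ± 0.23 on the log2 scale (edgeR adjusted p = 0.000144), OAS3 by 2.35 ± 0.22 (edgeR adjusted p = 0.000285) and LGALS3BP by 1.32 ± 0.17 (edgeR adjusted p = 0.00343), in every fit that left out 1 library. In 4EHP-null cells LGALS3BP rose by 0.91 ± 0.17 (edgeR adjusted p = 0.0141), OAS3 by 1.23 ± 0.24 (edgeR adjusted p = 0.0177), IFITM2 by 0.79 ± 0.17 (edgeR adjusted p = 0.0262) and IFIH1 by 1.18 ± 0.27 (edgeR adjusted p = 0.0385), the last beside neighbours with a median of 0.35. IFITM2 footprints were at 13.9 and 12.3 CPM in WT, 20.9 and 24.0 in 4EHP-null and 14.7 and 16.3 in GIGYF1/2-null libraries. None of the 4EHP-null Ribo-seq calls held in every such fit. None was left when either WT replicate or 4EHP-null replicate 2 was dropped, and 1 (LGALS3BP) when 4EHP-null replicate 1 was dropped, with adjusted p up to 0.203 for these 4 genes and 0.231 for IRF7. DESeq2 called 2 members, both higher, and did not call IFITM2 (adjusted p = 0.0569) or IFIH1. It gave no adjusted p for IRF7. IFIH1 did not pass in limma-voom either (adjusted p up to 0.102). IRF7 was not tested under the stricter filter or with only the genotypes compared, where its counts were too low to be kept. Its fall passed in the other settings that gave an adjusted p. IRF7 had 11 and 7 footprint counts in WT, 0 and 0 in 4EHP-null and 12 and 12 in GIGYF1/2-null libraries. It was at least 2.56-fold lower in 4EHP-null than in WT with a floor of 3 counts per library (edgeR adjusted p = 0.0442), beside neighbours with a median of -0.23.

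Between the null lines in Ribo-seq, 4 members were higher in GIGYF1/2-null cells and 2 lower, against 10.8% of all genes (3.98% higher, 6.80% lower, and 49.7% of calls higher under upper-quartile scaling against 36.9%). IFIH1 was higher by 1.54 ± 0.21 (edgeR adjusted p = 0.00132), OAS3 by 1.12 ± 0.20 (edgeR adjusted p = 0.00503) and IFIT5 by 0.61 ± 0.15 (edgeR adjusted p = 0.0275), and IRF7 was at least 2.86-fold higher (edgeR adjusted p = 0.014). SAMHD1 was lower by -0.70 ± 0.14 (edgeR adjusted p = 0.00825) and IFIT1 by -0.93 ± 0.27 (edgeR adjusted p = 0.0488). SAMHD1 footprints were at 135 and 117 CPM in 4EHP-null and 82.6 and 72.0 in GIGYF1/2-null libraries, IFIT5 footprints at 40.3 and 33.4 against 58.9 and 53.2, and IFIT1 footprints at 6.93 and 8.45 against 5.09 and 3.19. The 2 lines did not overlap for these genes. IFIH1 alone was called in every fit that left out 1 library. Without 4EHP-null replicate 1 there was 1 call, and OAS3 and SAMHD1 were lost in that fit only (adjusted p up to 0.0579 and 0.0893). IFIT5 was also lost without 4EHP-null replicate 2 or GIGYF1/2-null replicate 1 (up to 0.193), IRF7 without 4EHP-null replicate 2 (up to 0.101), and IFIT1 in 5 of the 6 fits, all but that without GIGYF1/2-null replicate 1 (up to 0.276). The IFIT1 call ended as well under upper-quartile scaling, in DESeq2 and with only the genotypes compared (adjusted p up to 0.155). IRF7 had no adjusted p in DESeq2. Under the stricter filter and with only the genotypes compared its counts were too low for it to be tested. In this comparison 14 members (40%) passed unadjusted, against 25.8% of all genes.

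Translation efficiency (TE, footprint change minus mRNA change, fitted over all 12 libraries) was called for none of the 32 members in any comparison by edgeR with assay and genotype as the only terms. Over all 13257 genes 0.0981% were called in 4EHP-null against WT, 0.0453% in GIGYF1/2-null against WT and 0.181% between the null lines. Unadjusted, 1, 1 and 2 members passed, against 7.19%, 4.29% and 6.25% of all genes, and DESeq2 and limma-voom called 0 members. IFIT1 in 4EHP-null cells had a TE change of 0.97 ± 0.35 (edgeR adjusted p = 0.531). For SP100, the other member with an unadjusted p under 0.05, the TE value rests on its 62 RNA counts. Among those with larger changes in mRNA, the RNA and footprint values were close, with 2.44 and 2.71 for IFIH1, 2.15 and 2.35 for OAS3 and 1.55 and 1.32 for LGALS3BP in GIGYF1/2-null cells. A p that misses the threshold does not show equal change, and 2 libraries per group limit what TE can resolve.

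Across the 31 members tested in both assays other than SP100, the mRNA and footprint changes correlated at r = 0.94 in GIGYF1/2-null cells, and 24 of 31 had the same sign. In 4EHP-null cells r was 0.79 over the 30 members without SP100 and IRF7, and 25 of 30 shared the sign. With SP100 included the GIGYF1/2-null value was 0.69, and with both genes the 4EHP-null value was 0.92. Over all 13257 genes r was 0.54 and 0.61 in 4EHP-null and GIGYF1/2-null cells, with 69.7% and 72.2% of the same sign. These are descriptions across genes, which are not independent replicates and differ in depth.

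**Figure D5:**
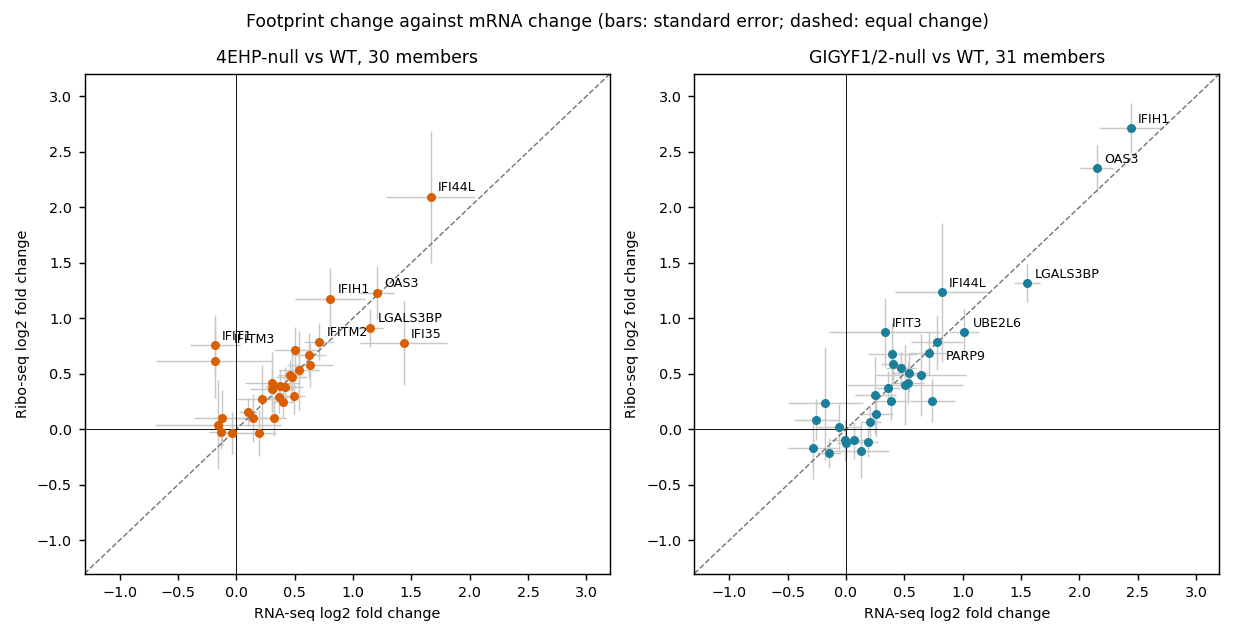
Ribo-seq against RNA-seq log2 fold change over WT of the members tested in both assays (bars, standard error; dashed line, equal change), for 4EHP-null (left, 30 members without SP100 and IRF7) and GIGYF1/2-null cells (right, 31 without SP100). IFIH1, OAS3 and LGALS3BP lie near the line in both panels, and IFIT1 and IFI35 lie farther from it in 4EHP-null cells.

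The ratio of footprints to mRNA in WT cells differed among members. Relative to the median gene, it was log2 3.11 for IFIT3, 2.38 for ISG20, 1.95 for IFITM1, 1.93 for DDX60 and 1.62 for LGALS3BP. The ratio was -0.74 for UBE2L6 and -0.49 for ADAR. The highest values rest on few WT RNA counts, 19 and 24 for IFIT3 and 11 and 19 for ISG20. The IFIT3 replicates gave 2.51 and 3.71. Footprints with few or no RNA counts, as in RSAD2, XAF1 and PARP14, were also seen for SP100, with 5188 footprint and 62 RNA counts. Such rows were not limited to the members, since 812 of the 27011 genes had 0 RNA counts and at least 10 footprint counts. The cause was not tested, and RNA counts of 0 for these genes are read only as listed at 0. RSAD2, XAF1 and PARP14 footprints ranged from 0.95 to 2.59, 1.61 to 3.27 and 2.93 to 4.51 CPM and were not called.

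Other genes of the interferon system came from lists chosen with earlier results known. Their shares of called genes are to be read against 13.1% and 11.9% of all genes called in 4EHP-null and GIGYF1/2-null RNA. Of 17 receptor and JAK-STAT genes, none was called in 4EHP-null RNA and 2 fell in GIGYF1/2-null RNA. That share of 11.8% was near that of all genes. The 2 were JAK2, a kinase bound to receptors (-1.02), and IFNGR1, a receptor chain for interferon-γ (-0.42). Of 30 sensor adaptors and regulators, 4 rose and 1 fell in 4EHP-null RNA, and 5 rose and 5 fell in GIGYF1/2-null RNA. These are 16.7%, near the share of all genes, and 33.3%. NLRC5, a regulator of class I genes, rose in both (1.18 and 1.55). DHX36, a helicase, fell in GIGYF1/2-null RNA (-0.82) and Ribo-seq (-1.79). Of 31 further interferon-stimulated genes, 4 rose and none fell in 4EHP-null RNA, and 5 rose and 1 fell in GIGYF1/2-null RNA, shares of 12.9%, near that of all genes, and 19.4%. BST2 (tetherin), which holds budding virus at the membrane, was at 4.81 and 3.87 CPM in WT, 77.4 and 84.0 in 4EHP-null and 4.40 and 4.56 in GIGYF1/2-null libraries. Its RNA rise of 4.22 in 4EHP-null cells was larger than that of any member. SP110, a nuclear body protein, rose by 2.04 in GIGYF1/2-null RNA. Of 15 class I antigen presentation genes, 3 rose and 1 fell (HLA-B, -0.49) in 4EHP-null RNA and 4 rose in GIGYF1/2-null RNA, 26.7% each. TAP2, a peptide transporter chain, rose in both (0.46 and 0.41). Of 11 NF-κB targets, 2 rose in 4EHP-null RNA (BIRC3 and RELB, 18.2%) and 1 in GIGYF1/2-null RNA (TRAF1, 9.09%), and each of these 3 calls ended without either WT replicate or without 1 library of the null line (4EHP-null replicate 2 for BIRC3, 4EHP-null replicate 1 for RELB, GIGYF1/2-null replicate 2 for TRAF1), with adjusted p up to 0.0993, 0.208 and 0.224. JAK2 was lost without WT replicate 1 (adjusted p = 0.0801), and IFNGR1 and the GIGYF1/2-null call of TAP2 without either WT replicate (up to 0.0797 and 0.0681), and the other changes given with a value held in every such fit.

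The authors' deposited tables, which start from fewer genes, listed 26 of the members in RNA-seq. At an adjusted p under 0.05 there, 15 members were higher in 4EHP-null and 12 in GIGYF1/2-null cells, and none was lower, while 9.82% and 7.84% of their 11268 genes were higher. In the authors' deposited table IFIH1 was higher in 4EHP-null RNA (0.80, adjusted p = 0.0379), where the present fit gave 0.81 and did not pass. The authors' deposited Ribo-seq tables listed 27 members, of which 8 were higher in each null line and none lower, against 3.45% and 2.28% of 10766 genes. In the authors' deposited TE tables none of 25 members passed in either line. IRF7 was not listed in these tables.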

How the data were processed

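RNA-seq and Ribo-seq of WT, 4EHP-null and GIGYF1/2-null HEK293T cells were analysed, with 2 replicates per genotype and assay. The deposited tables give raw read counts per gene and a gene width in bases. Per the labels' protocols, RNA libraries were made from total RNA with a TruSeq RNA kit. The submitters' processing notes name Bowtie2, TopHat2, edgeR and the build hg19, without versions or roles. Which program counted reads, with which annotation and strand option: not given in the sources used here. The authors also deposited log2 fold changes and adjusted p-values of their own comparisons, which were only copied.

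Counts were tested as deposited with edgeR 4.0.16 (R 4.3.3), using filterByExpr, TMM scaling within each assay and a quasi-likelihood F test over the 6 libraries of an assay. TE was the assay-by-genotype term over 12 libraries. P-values were adjusted by Benjamini-Hochberg over all genes tested. CPM use TMM-scaled totals, and SE is the log2 fold change divided by the root of F. Intervals and floors cover counting error only. The scripts were tested on simulated data. The alternatives tried were scaling by RLE or by the upper quartile, no filter, a stricter filter (1 CPM in 4 libraries), DESeq2 1.42.0, limma 3.58.1 (voom), only the genotypes compared, a replicate block, each library left out, and 25 neighbours instead of 12. In the left-out fits the lone library of a genotype is assumed to vary like the others. RefSeq order of GRCh38.p14 placed 97.4% of tested RNA-seq and 97.3% of Ribo-seq genes and was used only for neighbours; no coordinates were converted.

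The members and gene lists were chosen with earlier results of these data known. Named genes were every member by role, with per-library values for members called in a comparison, and up to 2 risers and 2 fallers of each other list by smallest adjusted p. Some genes of these other lists are not reported here by name.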

Additional observations from a re-analysis of the deposited data

How the results depend on the processing

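Counts of members called (edgeR) were recomputed under each alternative. Leaving out 1 library gave 6 to 15 in 4EHP-null RNA against WT (12 with all libraries), 4 to 10 in GIGYF1/2-null RNA (12), 6 to 11 between the null lines in RNA (10), 0 to 7 in 4EHP-null Ribo-seq (5), 3 to 4 in GIGYF1/2-null Ribo-seq (3) and 1 to 7 between the null lines in Ribo-seq (6). TE stayed at 0 in all 3 comparisons. With no filter, Ribo-seq gave 9 and 8 in 4EHP-null and GIGYF1/2-null cells against WT, and DESeq2 gave 2 in 4EHP-null Ribo-seq. Calls over all genes moved the same way, to 1166 and 1135 with no filter and to 327 in DESeq2, against 448 and 307 in the main fits. The cause was not tested. The other scalings, the stricter filter, limma-voom and the fit on only the genotypes compared kept each count of members within 1.5 times. Over the members and listed genes called, no direction reversed. Over all genes, leaving out 1 library gave 810 to 2537 calls in 4EHP-null RNA (2048) and 783 to 1819 in GIGYF1/2-null RNA (1868), and 118 to 751 (448) and 59 to 671 (307) in Ribo-seq. Between the null lines these ranges were 2238 to 3756 (3820) in RNA and 431 to 1659 (1587) in Ribo-seq, and for TE 5 to 59 (13), 1 to 8 (6) and 7 to 50 (24). The replicate block gave the most calls over all genes, 3571, 3224 and 5362 in RNA, 1830, 1747 and 3291 in Ribo-seq and 88, 30 and 114 for TE. The other settings ran down to 174 in GIGYF1/2-null Ribo-seq, with only the genotypes compared. With 25 neighbours on each side, 2 instead of 0 members called between the null lines in Ribo-seq (IFIT5 and IRF7) lay in a moved segment.

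Samples of the genotypes share replicate numbers, but no label says what a number stands for. Deviations of same-numbered RNA-seq libraries correlated at 0.07, 0.18 and 0.15, and of Ribo-seq libraries at 0.15, 0.31 and 0.22, with only 2 pairs each. With the replicate block, members called were 19 in 4EHP-null RNA, 15 in GIGYF1/2-null RNA, 16 between the null lines in RNA, 11, 10 and 13 in the same Ribo-seq comparisons, and 1 for TE between the null lines, SP100, lower by -3.10 (edgeR adjusted p = 0.0459, against 0.386 without the block), a value that rests on its 62 RNA counts.

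Depth limits the low members most: Ribo-seq libraries held 6536493 to 10816080 counts, so 3 counts are 0.265 to 0.472 CPM, and IRF7, IFI44L and ISG15 footprints lay near that level.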
